A study of Mus musculus with 20 samples.

Results

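The genes described here encode the collagens, other extracellular matrix proteins, cross-linking enzymes and profibrotic signals of the liver, together with markers of the hepatic stellate cells and fibroblasts that make them. They are 39 genes chosen by name from what their products do, with earlier results of these data known. Of these, 38 had a usable probe among the 17192 gene or probe rows tested. Livers of 10 mice classed as diet-induced obesity non-responders (resistant) were compared with livers of 10 responders (susceptible). All 20 samples came from male C57BL/6J mice that received a high-fat diet with 60% of energy from fat from weaning until the livers were taken at 6 weeks of age. Both groups therefore share the strain, the sex, the age and the diet, and no group on another diet was analysed here. How an animal was classed was not given in the sources used here, nor was any statement that each sample was a separate animal, so a p-value here speaks only to the scatter among these samples, which may be technical. One Agilent array with 1 dye carried each sample. A level is the log2 of the processed probe signal minus the log2 of that array's 75th percentile, so 0 marks the 75th percentile, and differences are responder minus non-responder on that log2 scale.

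In the liver, quiescent stellate cells store vitamin A in the space between hepatocytes and sinusoids. On injury they can turn into contractile myofibroblasts, which secrete fibrillar collagens under the influence of transforming growth factor beta and platelet-derived growth factor. Portal fibroblasts and vascular smooth muscle cells contribute further matrix, and endothelial cells and stellate cells share the making of basement membrane collagens. In whole liver RNA, fewer cells of a type and less RNA per cell cannot be told apart.

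Promoter sequences are printed for 3 members with a lower level in responders, because type I and type III collagen and vimentin varied together from liver to liver. They are the 250 bases before the annotated start, 5′ to 3′ on the gene's strand, credited to RefSeq on GRCm38.p6. Col1a2 lies at chr6:4505368-4505617, Col3a1 at chr1:45311288-45311537 and Vim at chr2:13574061-13574310, all on the plus strand. Capitals mark matches, on either strand, to the core letters of 3 common promoter elements. These are CCAAT for the box of that name, TATAAA for the TATA box and GGGCGG for the GC box.

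Col1a2: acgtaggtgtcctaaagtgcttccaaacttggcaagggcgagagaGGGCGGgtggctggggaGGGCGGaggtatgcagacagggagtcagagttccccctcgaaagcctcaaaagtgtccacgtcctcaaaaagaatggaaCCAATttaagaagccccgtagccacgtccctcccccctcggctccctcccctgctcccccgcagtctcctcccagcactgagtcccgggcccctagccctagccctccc

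Col3a1: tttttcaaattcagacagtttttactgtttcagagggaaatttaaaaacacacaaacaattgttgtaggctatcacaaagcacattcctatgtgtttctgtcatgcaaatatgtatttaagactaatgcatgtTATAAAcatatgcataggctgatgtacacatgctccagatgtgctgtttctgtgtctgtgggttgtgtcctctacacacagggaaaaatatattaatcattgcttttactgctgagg

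Vim: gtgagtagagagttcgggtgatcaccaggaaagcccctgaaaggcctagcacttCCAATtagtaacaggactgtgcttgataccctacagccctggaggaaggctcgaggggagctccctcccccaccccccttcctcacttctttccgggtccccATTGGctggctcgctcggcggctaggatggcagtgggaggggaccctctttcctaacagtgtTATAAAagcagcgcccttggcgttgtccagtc

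The CCAAT match of Col1a2 begins 109 bases before its start and its GGGCGG matches begin 205 and 188 bases before it. Vim holds CCAAT 196 bases before its start, the reverse complement of CCAAT 94 bases before it, and TATAAA 32 bases before it. Col3a1 holds TATAAA 117 bases before the annotated start. None of the 3 motifs was found in all 3 windows. Over the 25 members with an entry that was used, 7 held CCAAT (28%), 3 held TATAAA (12%) and 14 held GGGCGG (56%), beside 33.8%, 12.4% and 32.7% of all 32851 promoters of the same length. Entries on chromosome 18 were left out for the members alone. A member counted if any of its entries held the motif, whereas all promoters were counted entry by entry. The percentages are therefore not like for like, and a member with several entries had more chances of a match. A match describes the letters and does not mark a site in use.

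The 75th percentile of the processed signal ranged from 280.1 to 656.8 across arrays, and 55.8% to 71.2% of spots were well above background. The slide barcodes fall into 2 slide series, which coincide with the scan dates. In the first, 6 arrays carried non-responders and 4 carried responders, and in the second the numbers were reversed (4 and 6). Slide series alone separated many genes, with 12.7% of rows lower and 17.6% higher in the second series at an adjusted p under 0.05 (limma, Benjamini-Hochberg), and 5 members lower and 1 higher. Series was therefore a term in the fits reported here other than those within a series, and differences are also given within each series. The hepatocyte markers were bright on every array, with 9 of 10 measured and a mean level of 7.06 to 7.98 in non-responders and 7.0 to 7.39 in responders. Markers of tissues outside the liver lobule varied widely. The mean level of 15 striated muscle genes ran from -5.46 to 4.68 in non-responders and from -6.44 to 4.67 in responders. The mean level of 8 pancreatic acinar genes ran from -4.29 to 5.23 and from -4.97 to 5.20.

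No member differed between responders and non-responders at an adjusted p under 0.05 (limma, Benjamini-Hochberg over all 17192 rows), and no other row did (0% called). The smallest adjusted p among the members was 0.490. At an unadjusted p under 0.05, 9 of the 38 members were lower in responders (23.7%), beside 3.73% of all rows, and 1 was higher (2.63%), beside 4.25%. By sign alone, 32 members were lower (84.2%, beside 51.1% of all rows) and 6 higher, and the median member difference was -0.13 against 0.00 over all rows. Members vary together from liver to liver, so these counts are not counts of independent genes. The list was also chosen with earlier results of these data known, so the shares are descriptions and no independent test. The 9 were Col1a1, Col1a2, Col3a1, Col6a3, Lum, Postn, Ccn2, Vim and Pdgfra, and the member that was higher was Fn1. In the first slide series alone 3 members were lower at an unadjusted p under 0.05, beside 4.45% of rows, and in the second alone 10 were, beside 4.22%. The median member difference was 0.02 and -0.32 in the same fits, and without non-responder 7 it was -0.06. A covariate of adipocyte markers left no member lower at that p, a result given with the adipocyte values further on.

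**Figure D1:**
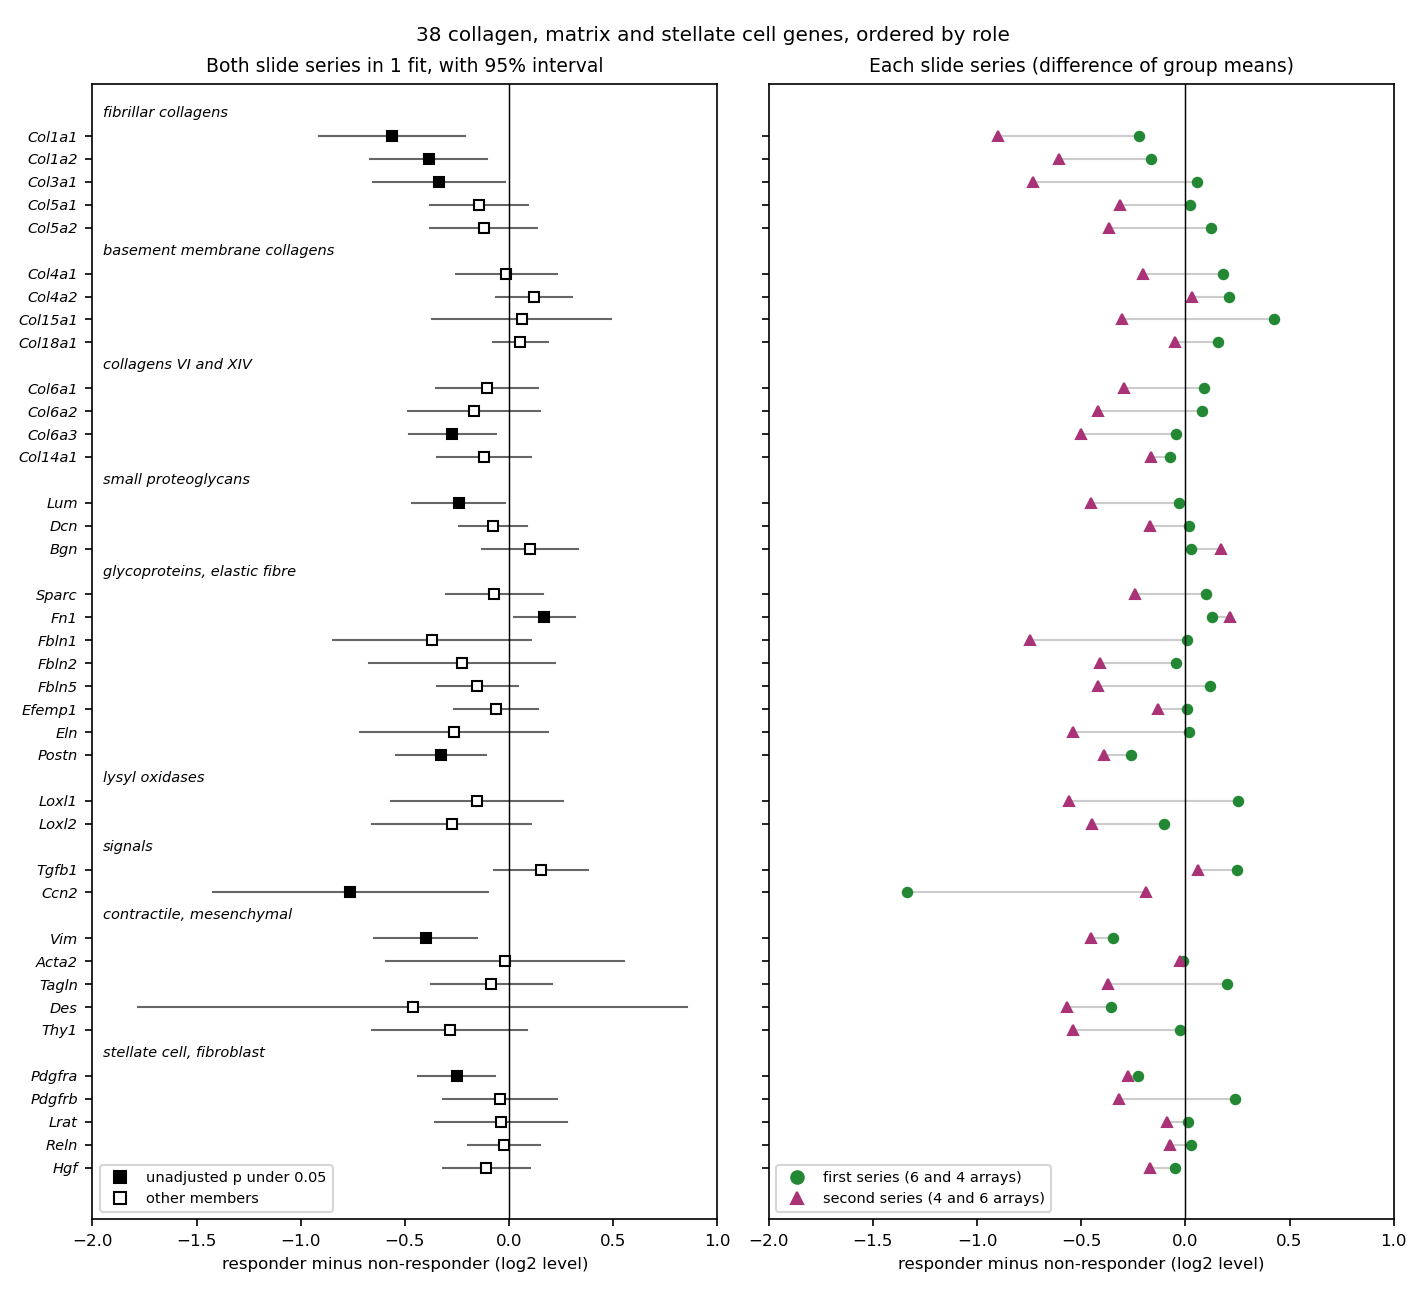
Differences between responders and non-responders (log2 level) for the 38 measured members in order of role. Squares with lines are fitted differences with 95% intervals, filled where the unadjusted p was under 0.05. On the right, circles and triangles are the differences in the first and second slide series. Most triangles lie left of the circles: 34 members (89.5%, beside 55.4% of all rows) were lower in the second series and 15 (39.5%, beside 46.6%) in the first.

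The fibrillar collagens form the rope-like fibrils of interstitial and scar matrix. Col1a1 encodes the main chain of type I collagen. Its level in non-responders was lowest at 0.54, with a median of 1.13 and a highest value of 1.64, and in responders the corresponding values were -0.10, 0.69 and 1.07. The groups overlapped, but 4 responders lay below every non-responder and 9 of 10 were under the mean of the non-responders scanned in their own series. The difference was -0.56 (SE 0.168, unadjusted p = 0.0034, adjusted p = 0.492 by limma), which corresponds to a change in signal of -32.2%. A further Col1a1 probe with a 60-base target in the same gene also lay lower, by -0.41 (SE 0.154), and its values correlated with the first at r = 0.805 over 20 arrays. That probe, at chr11:94812052-94812111 on mm9, is printed because it is a second measure of the gene with the smallest p among the fibrillar collagens.

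Col1a1 probe: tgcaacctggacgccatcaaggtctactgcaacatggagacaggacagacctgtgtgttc

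Col1a2, the partner chain of Col1a1, ran from 2.82 through a median of 3.34 to 3.95 in non-responders and from 2.65 through 2.90 to 3.6 in responders. Its difference was -0.39 (SE 0.134, adjusted p = 0.534). Col3a1 encodes type III collagen, the reticular fibre collagen of liver. It ran from 2.21 through 3.0 to 3.87 in non-responders and from 2.37 through 2.79 to 3.15 in responders, with a difference of -0.34 (SE 0.152, adjusted p = 0.610). The lowest Col3a1 value was a non-responder, so responders were not lowest here. Its dimmer second probe, which stood well over background on 5 non-responder and 5 responder arrays, differed by -0.05 (SE 0.239). The type V chains, which start the fibrils, differed less. Col5a1 had medians of -0.66 and -0.67 in non-responders and responders (range -0.98 to 0.07 and -0.90 to -0.11), and a difference of -0.14 (SE 0.113). A second Col5a1 probe, well above background on every array, differed by -0.24 (SE 0.290) but correlated at r = -0.325 with the first. In the correlations further on, the first probe alone stands for Col5a1. Col5a2 had medians of -1.84 and -1.92 (range -2.24 to -1.13 and -2.16 to -1.52), and a difference of -0.12 (SE 0.122). Neither type V chain had an unadjusted p under 0.05, and without non-responder 10 the differences were -0.07 and -0.03.

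**Figure D2:**
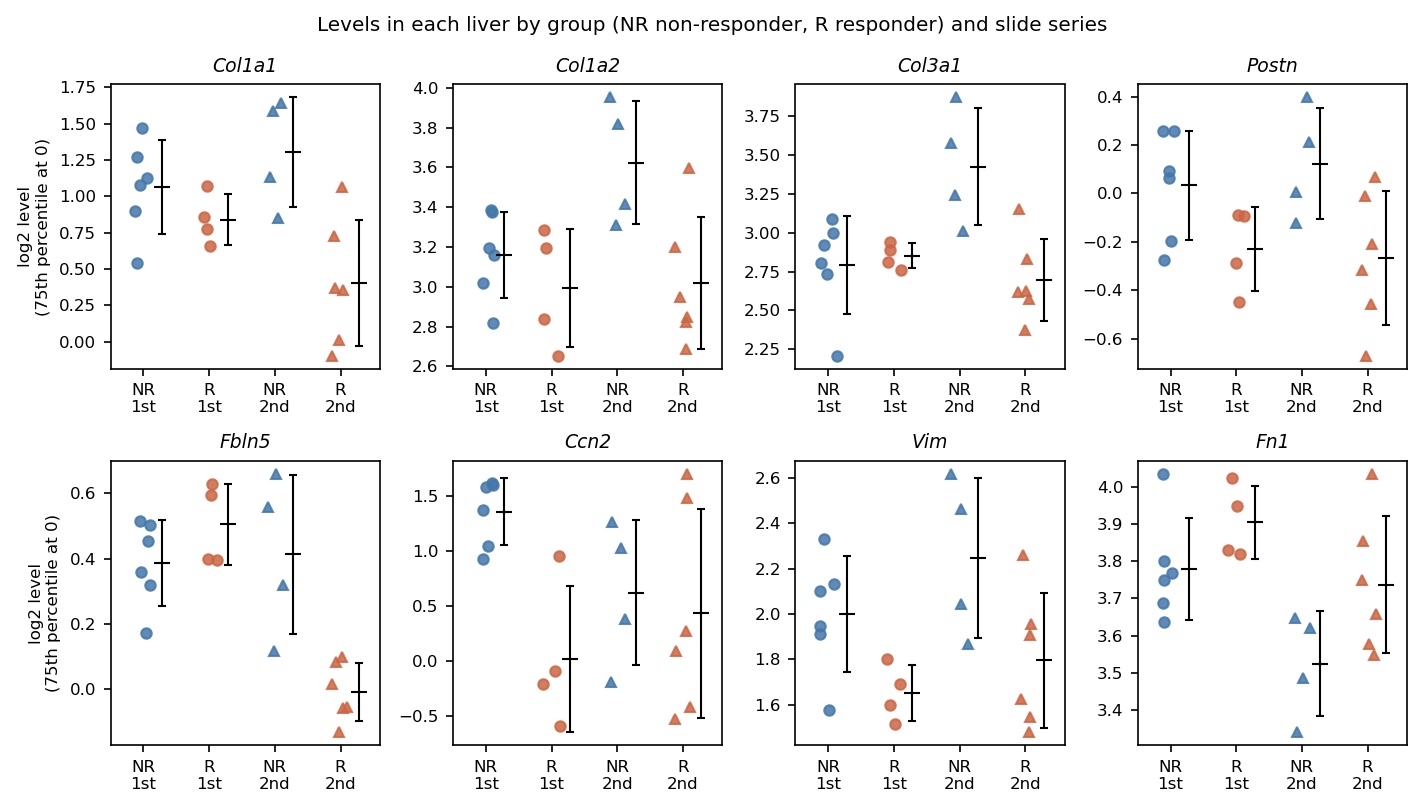
Log2 level of 8 members in every liver, by group (NR non-responder, R responder) and slide series (circles first, triangles second), with the mean and SD of each set beside it. The group means of Col1a1 and Col3a1 differ mainly in the second series and those of Ccn2 mainly in the first, with overlapping values in both series. Fbln5 responders of the second series all lie below that series' non-responders.

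The collagens of basement membranes and their neighbouring zone differed little between the groups. Col4a1 and Col4a2 encode the chains of the common type IV network, and their differences were -0.01 (SE 0.116) and 0.12 (SE 0.0867). Col15a1 (0.06, SE 0.205) and Col18a1 (0.05, SE 0.0627), whose products carry heparan or chondroitin sulphate chains at the basement membrane zone, were also close to 0. The median of the 4 was 0.06, and none had an unadjusted p under 0.05. The 95% interval for Col18a1, the most tightly measured, ran from -0.08 to 0.19. Whether these collagens differed from the fibrillar ones in their response was not tested. Of 11 laminins, nidogens and basement membrane proteoglycans, 9 were lower in responders. The proteoglycan Hspg2 alone had an unadjusted p under 0.05, with a difference of -0.21 (SE 0.0842, adjusted p = 0.589).

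Collagen VI forms beaded microfilaments around cells, and collagen XIV decorates the surface of fibrils. Col6a3 ran from 0.10 through 0.42 to 1.25 in non-responders and from 0.12 through 0.26 to 0.63 in responders. The highest responder lay well below the highest non-responder, while the lowest values of the groups were alike, and the difference was -0.27 (SE 0.10, adjusted p = 0.541). Col6a1 (-0.10, SE 0.117), Col6a2 (-0.17, SE 0.152) and Col14a1 (-0.12, SE 0.108) had the same sign without an unadjusted p under 0.05. A second Col14a1 probe had the opposite sign (0.18, SE 0.150).

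Among the small leucine-rich proteoglycans, which bind fibrils and set their width, Lum (lumican) was the member with a lower level. It ran from 1.09 through 1.60 to 1.74 in non-responders and from 0.65 through 1.32 to 1.66 in responders, and 4 responders lay below every non-responder. The difference was -0.24 (SE 0.108, adjusted p = 0.607). Dcn (decorin) differed by -0.08 (SE 0.0783) and Bgn (biglycan) by 0.10 (SE 0.109). A second Dcn probe, well above background on 7 non-responder and 8 responder arrays, differed by -0.24 (SE 0.114).

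Postn encodes periostin, a matricellular protein of remodelling tissue. It ran from -0.28 through 0.08 to 0.40 in non-responders and from -0.67 through -0.25 to 0.07 in responders. Each of the 10 responders was under the mean of its own series' non-responders, and the difference was -0.33 (SE 0.104, adjusted p = 0.522). Fn1 encodes fibronectin, which hepatocytes also secrete into plasma, and it ran the other way. Its level was 3.34 to 4.03 with a median of 3.67 in non-responders and 3.55 to 4.04 with a median of 3.83 in responders. The difference was 0.17 (SE 0.0702, adjusted p = 0.589), no responder was under the mean of its own series' non-responders, and 2 further probes gave 0.31 and 0.26. The other glycoproteins and elastic fibre genes had no unadjusted p under 0.05. Their differences were -0.37 for Fbln1, -0.26 for Eln, -0.23 for Fbln2, -0.15 for Fbln5, -0.07 for Sparc and -0.06 for Efemp1. The second Sparc probe differed by -0.25 (SE 0.0929).

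Lysyl oxidases cross-link collagen and elastin. Loxl1 differed by -0.15 (SE 0.197) and Loxl2 by -0.28 (SE 0.182). A second Loxl2 probe, well above background on every array, differed by -0.01 (SE 0.126) and correlated at r = 0.247 with the first. The probe for Lox was well above background on 2 non-responder arrays and 1 responder array and was not tested. Of 17 measured genes for collagen folding, hydroxylation and processing, none was lower at an unadjusted p under 0.05 and 2 were higher. These were Plod3, a lysyl hydroxylase (0.16, SE 0.0614, adjusted p = 0.541), and P4hb, a subunit of prolyl hydroxylase that is also a general disulphide isomerase (0.17, SE 0.0704, adjusted p = 0.597). The median of the list was -0.02.

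Of the profibrotic signals, Tgfb1, the ligand that drives collagen synthesis in stellate cells, differed by 0.15 (SE 0.109). Ccn2 encodes connective tissue growth factor, a matricellular protein that is a target of transforming growth factor beta and of the YAP coactivator. It had the most negative difference among the members. Its level was -0.19 to 1.62 with a median of 1.15 in non-responders and -0.59 to 1.70 with a median of 0.00 in responders. The highest value of all was a responder, and 4 responders lay below every non-responder. The difference was -0.76 (SE 0.315, adjusted p = 0.589). Of 17 measured genes of the transforming growth factor beta pathway, Ltbp1, which stores the latent ligand in matrix, alone had an unadjusted p under 0.05 (-0.40, SE 0.112, adjusted p = 0.490). Among 10 measured collagen and matrix receptors the integrin subunit Itgb3 alone did (-0.65, SE 0.293, adjusted p = 0.609). None of 3 measured ligands of the platelet-derived growth factor receptors did.

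Vim encodes vimentin, the intermediate filament of mesenchymal, endothelial and blood cells, and had the smallest p of the members. It ran from 1.58 through 2.07 to 2.62 in non-responders and from 1.48 through 1.66 to 2.26 in responders, and 9 of 10 responders were under the mean of their own series' non-responders. The difference was -0.40 (SE 0.118, unadjusted p = 0.00304, adjusted p = 0.490), with -0.35 and -0.45 in the first and second series. Pdgfra encodes a receptor of fibroblasts and stellate cells. It ran from -1.90 through -1.30 to -1.07 in non-responders and from -2.08 through -1.59 to -1.36 in responders. Its difference was -0.25 (SE 0.0882, adjusted p = 0.534), with -0.23 and -0.27 in the series. The cell surface marker Thy1 of portal fibroblasts and T cells ran from -1.30 through -0.77 to 0.14 and from -1.77 through -0.90 to -0.51, with a difference of -0.28 (SE 0.178), or -0.16 without non-responder 7.

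The defining stellate cell genes differed little between the groups. Lrat encodes the enzyme that esterifies retinol for storage. It ran from -1.08 through -0.51 to -0.24 in non-responders and from -1.18 through -0.52 to -0.19 in responders (difference -0.04, 95% interval -0.36 to 0.28). Reln, a secreted protein of quiescent stellate cells, ran from 1.76 through 2.11 to 2.40 and from 1.77 through 2.12 to 2.27 (difference -0.02, 95% interval -0.20 to 0.15). Hgf, the hepatocyte growth factor made by stellate cells, ran from -1.15 through -0.85 to -0.43 and from -1.34 through -0.99 to -0.48 (difference -0.11, SE 0.0997). Pdgfrb, the receptor of activated stellate cells and pericytes, ran from -0.55 through 0.13 to 0.68 and from -0.38 through 0.08 to 0.27 (difference -0.04, SE 0.131). All 4 groups of values overlapped almost fully. For Lrat and Hgf the probes did not share a sign.

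Among the contractile markers, Des and the brightest Acta2 probe moved with striated muscle genes. Des encodes desmin, a muscle filament that rodent stellate cells also express. Its level spanned -3.72 to 0.93 in non-responders (median -0.63) and -3.65 to 1.00 in responders (median -2.33), a 26.4-fold range in signal across the 20 livers. The difference was -0.46 (SE 0.631), and neither group stood apart. It was -0.03 without non-responder 7 and -0.77 without responder 2. After group and series were removed, the genes most like Des included Tpm2, Nrap and Tpm1 (each r = 0.990 over 20 arrays), which encode proteins of muscle thin filaments and their anchorage. Des correlated at r = 0.895 with the mean of the 15 striated muscle genes, a list added after the values were seen. None of those 15 genes had an unadjusted p under 0.05 for group. With their mean as a covariate the Des difference was 0.02.

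Acta2 encodes smooth muscle alpha-actin, the usual marker of activated stellate cells. The probe used, the brightest, ran from 2.18 through 3.46 to 4.22 in non-responders and from 2.26 through 2.90 to 4.39 in responders, with a difference of -0.02 (SE 0.272). It lies across a splice junction at chr19:34322995-34326249 on mm9, minus strand. Actins are closely alike in their coding sequence, as background. The likeness of this stretch between actin genes was not computed, and it is printed so that it can be compared.

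Acta2 probe: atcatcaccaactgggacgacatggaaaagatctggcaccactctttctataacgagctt

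That probe correlated at r = 0.977 with Des and at r = 0.826 with Acta1, the skeletal muscle actin, but at r = 0.308 with Myh11 and r = 0.40 with Cnn1, genes of smooth muscle contraction. Of 4 Acta2 probes kept, the one at chr19:34316060-34316119 did the reverse. It correlated at r = 0.959 with Cnn1, r = 0.905 with Myh11 and r = 0.787 with Tagln, and at r = 0.384 with Des. Its level ran from -0.63 through 0.31 to 1.22 in non-responders and from -1.29 through 0.00 to 1.29 in responders, with a difference of -0.28 (SE 0.274). These probes correlated with each other at r = 0.505. Another probe, at chr19:34315697-34315756, also had a higher r with Cnn1 (0.874) than with Des (0.453) and differed by -0.38 (SE 0.415). The remaining probe, well above background on 4 non-responder and 5 responder arrays, had r = 0.396 with Des and 0.324 with Cnn1 and differed by 0.01 (SE 0.219), so the 4 probes did not share a sign. Which actin RNA the brightest probe reports in these livers was not tested, and Acta2 is reported as uncertain. Tagln (SM22), the third contractile marker, correlated at r = 0.125 with the striated muscle mean. It ran from 1.90 through 2.48 to 2.99 and from 1.78 through 2.22 to 2.91, with a difference of -0.09 (SE 0.139).

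**Figure D3:**
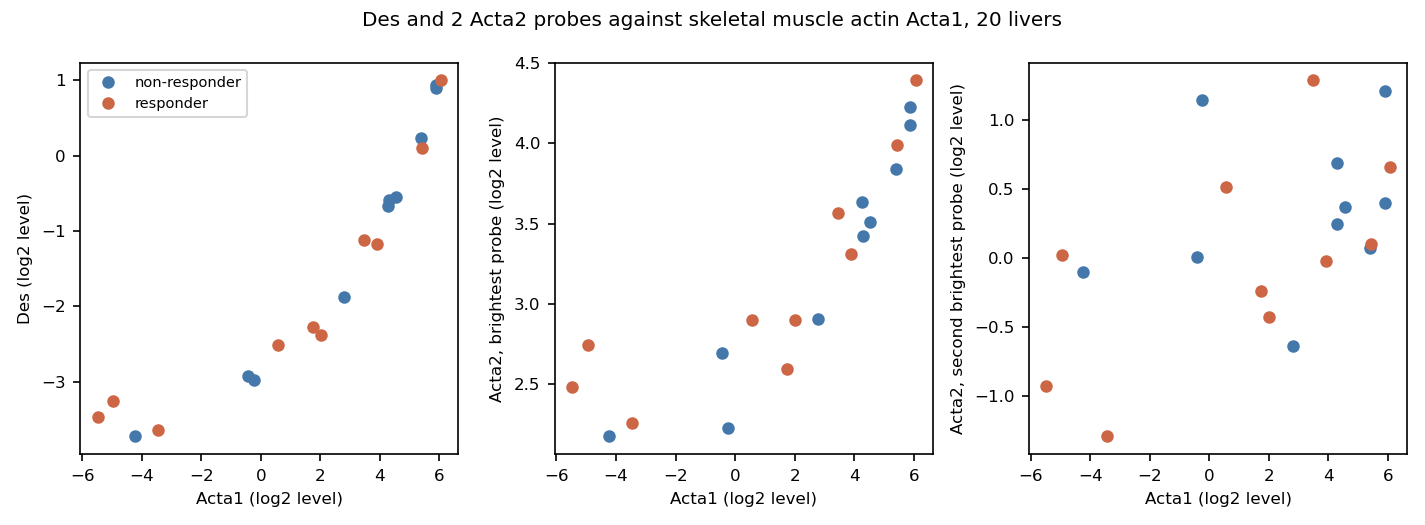
Log2 level of Des and of 2 of the 4 Acta2 probes kept (y axes) against the skeletal muscle actin Acta1 (x axis) in the 20 livers, coloured by group. Des and the brightest Acta2 probe climb with Acta1 in both groups, while the Acta2 probe that followed Cnn1 scatters.

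Most members had a more negative difference in the second slide series, though none passed adjustment for the group by series term. Of the 38 members, 35 (92.1%) had a more negative difference in the second series than in the first, beside 56.8% of all rows. After normexp background correction 27 of the 38 did, beside 54.4% of rows. Members vary together, so these are not counts of independent genes. At an unadjusted p under 0.05 for the group by series term, 9 members (23.7%) were more negative in the second series, beside 6.07% of rows, and none was more positive. That count was 4 without responder 3 (4.47% of rows), non-responder 7 (6.03%) or non-responder 10 (4.59%). It was 5 without non-responder 3 or 6 or responder 1, 4, 5 or 6 (4.76% to 6.24% of rows). It was 14 without responder 7 (7.02%), 13 without non-responder 9 (5.85%) and 12 without non-responder 8 (5.96%). After normexp background correction it was 0 (0.244% of rows). None passed adjustment (smallest adjusted p among members 0.365), nor did any other row (0% called). Fbln5 encodes fibulin 5, an organiser of elastic fibres, and had the smallest p of these (unadjusted p = 0.00125, adjusted p = 0.365). It ran from 0.12 through 0.41 to 0.66 in non-responders and from -0.13 through 0.09 to 0.63 in responders. Its differences in the series were 0.12 and -0.42, in that order. In the second series every responder lay below every non-responder for Fbln5, beside 0.774% of all rows, and this held for no other member. Col3a1 had 0.06 and -0.73 (adjusted p = 0.411), Col1a1 -0.22 and -0.90 (adjusted p = 0.496), Loxl1 0.25 and -0.56 (adjusted p = 0.481), and Pdgfrb 0.24 and -0.32 (adjusted p = 0.474). Loxl1 ran from -1.48 through -1.19 to -0.41 in non-responders and from -2.39 through -1.13 to -0.59 in responders. The others were Col6a3, Col5a2, Lum and Tagln. Ccn2 had the reverse order, -1.34 and then -0.19 (adjusted p of the term 0.542). Of the members with an unadjusted p under 0.05 for group, Col3a1 alone changed sign between the series. Col6a3 and Lum were near 0 in the first series, at -0.04 and -0.03. The differences in the series were -0.26 and -0.39 for Postn and 0.13 and 0.21 for Fn1. In the second series non-responders 7 and 10 held the highest values of the fibrillar mean, 1.5 and 1.65, and non-responders 8 and 9 had 0.97 and 1.04. The responders of that series ran from 0.46 to 1.24.

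The fibrillar collagens and collagen VI varied together from liver to liver, and collagen XIV followed them less closely. With group and series removed, the 10 pairs of fibrillar collagens had a median r of 0.761 over 20 arrays (range 0.566 to 0.910), with Col1a1 and Col1a2 at 0.910. The 20 pairs of fibrillar collagens with collagens VI and XIV had a median of 0.723 (range 0.408 to 0.9), and Col6a1 with Col6a2 stood at 0.940. The lowest of the 20 was Col14a1 with Col1a2, and Col14a1 had 0.338 with Col6a1, 0.308 with Col6a2 and 0.656 with Col6a3. All 703 pairs had a median of 0.371. The stellate cell and fibroblast genes had a median of 0.256 with the fibrillar collagens and of 0.049 among themselves. Lrat had r = 0.552 with Col1a2 and 0.47 with Reln, whereas Hgf had r = -0.003 with Col1a1 and with Lrat. Within that role the pair with the closest values reached 0.662. Against the mean of the fibrillar collagens, Col6a3 had r = 0.914 (rho 0.929, and r = 0.888 without the 2 arrays farthest from the median), Vim 0.791, Tagln 0.793, Postn 0.572 and Pdgfra 0.327. Ccn2 had -0.17 and Fn1 -0.42. These are descriptions over livers that share arrays and series, with no test.

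**Figure D4:**
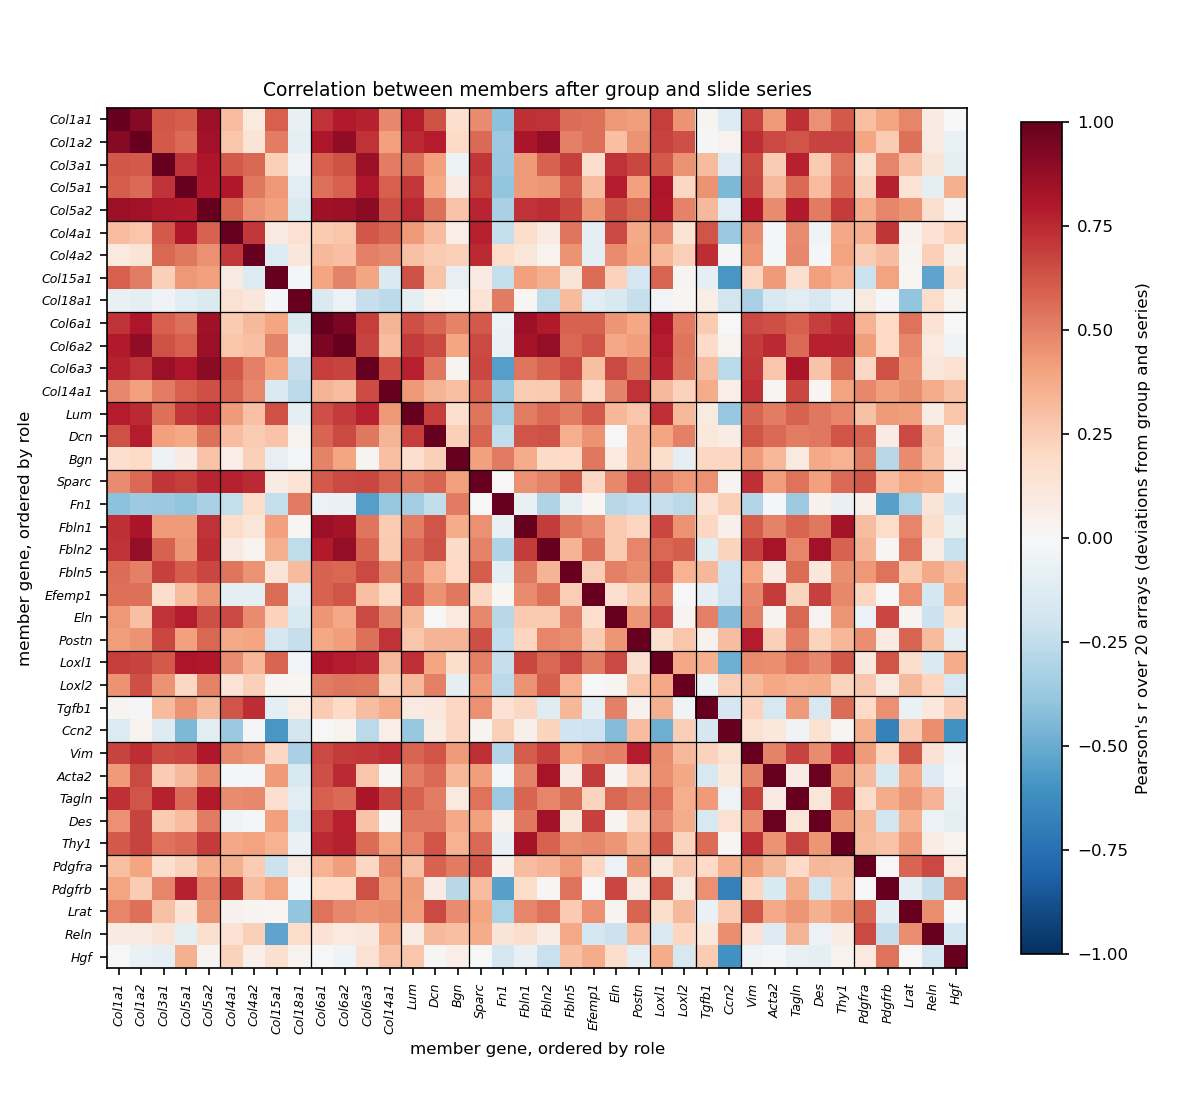
Pearson's r between all pairs of the 38 members over 20 arrays after group and slide series were removed, ordered by role with lines between roles. The block of fibrillar collagens and collagens VI and XIV is high, with median r of 0.761 and 0.723, though lower for Col14a1 (0.308 with Col6a2). Fn1, Ccn2, Col18a1, Reln and Hgf form pale or blue bands.

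The 10 genes outside the list most like the fibrillar mean were Anxa2, Emp1, Fbn1, Cavin3, Sfxn3, Fstl1, Cavin1, Tspan6, Pcolce and Tm4sf1, with r from 0.882 down to 0.857 among 13635 genes ranked. Fbn1 encodes fibrillin 1 of microfibrils, and Pcolce an enhancer of procollagen processing. In the group comparison Fstl1 had -0.24 (SE 0.113, adjusted p = 0.619), and the other 9 had no unadjusted p under 0.05. By contrast the genes most like Ccn2 were Tomm20, Slc25a32, Mfsd2a, Nmrk1, Lpin1 and Lpin2 (r = 0.906 to 0.882), and none of these is a matrix gene. The genes most like Vim included Serpinb6a, Wls and Cd36 (r = 0.901 to 0.889). Vim and Postn correlated at r = 0.782, a closer match than that of Postn with the fibrillar mean.

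Markers of other cell types moved with these results. Of 8 measured adipocyte genes 7 were lower in responders, 6 at an unadjusted p under 0.05. Of these, Plin1, which coats lipid droplets, was well above background on 8 non-responder and 3 responder arrays, and Retn on 6 and 2, so both were tested because of their level in non-responders. Of the 6 other genes, 5 were lower at that p. Examples are Fabp4, a fatty acid carrier (-0.53, SE 0.202), Adipoq, the adipokine adiponectin (-1.37, SE 0.580), and Lpl, lipoprotein lipase (-0.62, SE 0.283). Their adjusted p ran from 0.541 to 0.611. Lep and Slc36a2 had no usable probe. The mean level of the 8 genes was -1.16 to 1.77 in non-responders (median 0.53) and -1.91 to 0.59 in responders (median -1.12). It correlated at r = 0.664 with the fibrillar mean after group and series were removed. With the adipocyte mean as a covariate, 0 of 38 members were lower at an unadjusted p under 0.05, beside 3.82% of rows. At that p 2 members were higher, with the share of rows higher not counted, and by sign alone 18 members were lower. The median member difference became 0.02, and the differences of Col1a1, Vim and Postn became -0.30, -0.17 and -0.19. Fn1 was at 0.18 in that fit. With Plin1 and Retn left out of the covariate, 0 members were lower at that p, beside 3.65% of rows, 2 were higher, and the median was 0.02. The adipocyte mean itself differed between the groups by -1.02 (SE 0.403), so a fit that includes it also takes up group difference. Smooth muscle markers correlated at r = 0.764 with the fibrillar mean (4 of 6 lower in responders, mean level -1.14 to -0.13 in non-responders and -1.57 to -0.09 in responders). The 11 dividing cell markers measured, of which 10 were lower and 6 had an unadjusted p under 0.05 (Birc5 -0.58, Kif11 -0.57, Ect2 -0.73 and Tpx2 -0.82), correlated at r = 0.033. Their mean level ran from -3.09 to -1.38 in non-responders and from -3.20 to -2.02 in responders. The hepatocyte mean correlated at r = -0.527. With the striated muscle mean as a covariate 7 members were lower at an unadjusted p under 0.05, beside 4.15% of rows. The part of other cell types in the collagen differences was not tested.

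Endothelial markers had Lyve1 alone at an unadjusted p under 0.05 (-0.34, SE 0.154), and of 11 macrophage and Kupffer cell markers none. Cholangiocyte and mesothelial markers had none, and the mesothelial mean was -4.05 to -2.34 in non-responders and -4.39 to -2.08 in responders. Actg2, the gamma smooth muscle actin, was the smooth muscle gene with such a p, and it was higher in responders (0.27, SE 0.104, adjusted p = 0.542).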

How the data were processed

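Liver RNA of 10 non-responders and 10 responders was labelled with Cy3 and hybridised to single-colour arrays, per the labels' protocols. The deposited files hold spot intensities on a linear scale, background-subtracted within the array per the file headers. The file headers name Agilent Feature Extraction 10.5.1.1, while the submitters' processing notes name version 9.1. The authors' deposited table of processed intensity served as an alternative, with its making not given in the sources used here.

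From these, each array's log2 processed signals were set relative to its own 75th percentile, leaving out control and outlier-flagged spots and averaging spots of a probe. Of 41174 probes, 26160 stood well above background on 5 or more arrays in one of the groups. The brightest kept probe stood for each gene, and 5 of the 19 members with several kept probes had probes of unlike sign. Probe positions are those of mm9, per the file headers. The comparison used limma 3.58.1 (R 4.3.3) on group plus slide series, the series being taken from the scan dates, with which the slides' barcodes coincide. Benjamini-Hochberg adjustment ran over 17192 rows, with a threshold of 0.05. The number of arrays limits the precision.

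The members and lists were chosen with earlier results of these data known. Values per array were given for the fibrillar collagens, the stellate and contractile markers and any other member with an unadjusted p under 0.05, for group or for group by series. For other lists up to 4 genes with the smallest such p were named. The striated muscle list, the adipocyte covariate without Plin1 and Retn and the genes most like single members were chosen after seeing the data. On simulated data made from the 17192 rows, the group fit recovered 84% of 50 differences of -1 and 46% of 50 differences of -0.5 on the log2 scale. The simulated noise was normal and independent between rows, and 50 rows each were changed by -2, -1, -0.5 and 0.5 at once. Real rows vary together and no real row passed adjustment, so these shares do not give the power of the real comparison. Alternatives were other background corrections, scalings, filters and probe summaries, the deposited table, fits without the series term, with a replicate block or a slide block, within each series, with array weights or a trended variance, marker covariates and leaving out each array.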

Additional observations from a re-analysis of the deposited data

Results flagged for a closer look

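Of 76 sets of 10 arrays (38 members in both groups), 4 held a value set apart from the others by more than Dixon's 95% limit, about the number that chance gives at 1 in 20. Responder 7 had the highest Col5a1 level of the responders, -0.11, with the next at -0.56. Non-responder 10 had the highest Col14a1 level of the non-responders, 2.30, with the next at 1.78. Responder 6 had the lowest Loxl1 level of the responders, -2.39, with the next at -1.45. Non-responder 9 had the lowest Pdgfra level of the non-responders, -1.90, with the next at -1.43.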

How the results depend on the processing

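No member passed adjustment under any alternative run, for group or for group by series. The count of 9 members lower at an unadjusted p under 0.05 lay between 7 and 10 under the other alternatives and was 3 in the first slide series alone and 0 with the adipocyte covariate, with or without Plin1 and Retn in it. The median member difference of -0.133 was 0.0156 in the first series alone and 0.0189 with that covariate (0.0221 without Plin1 and Retn). Leaving out 1 array gave 7 to 10 members lower, a median of -0.176 (without responder 3) to -0.0632 (without non-responder 7) and 31 to 35 members more negative in the second series. Signs are given for the 22 members described array by array. In the first series alone, where 15 of all 38 members were lower, the sign turned for Col3a1 (0.0574), Col5a1 (0.0241), Col5a2 (0.123), Tagln (0.201), Pdgfrb (0.237), Lrat (0.0130), Reln (0.0263), Fbln5 (0.117) and Loxl1 (0.255). With the adipocyte covariate it turned for Col5a2 (0.103), Acta2 (0.493), Tagln (0.108), Des (0.75), Lrat (0.128), Reln (0.0155) and Loxl1 (0.0808), without Plin1 and Retn in it for the same members (0.0831, 0.495, 0.0766, 0.767, 0.120, 0.0224 and 0.0614), and with the striated muscle covariate for Acta2 (0.171) and Des (0.0220). After normexp it turned for Col5a2 (0.102), Fn1 (-0.292), Pdgfra (0.00675), Lrat (0.161) and Hgf (0.0228). There the fitted background of responder 1 was -3048 and its values correlated at r = 0.612 with those used, against 0.897 to 0.986 on the other arrays. Reln turned after plain subtraction (0.0148), Pdgfrb with array weights (0.0103), and Lrat in the deposited table (0.00111) and with the mean of all probes (0.0135). The cause was not tested. Whether same-numbered samples pair was not settled (r of deviations -0.226 to 0.588, median 0.198, above 0.1 in 6 of 10 pairs). Differently numbered samples were not compared in this way. With the title number as a replicate block, 9 members were lower at an unadjusted p under 0.05, beside 5.98% of rows, the median difference was -0.123, and Acta2 (0.00189) and Pdgfrb (0.0115) turned. Leaving out arrays turned Acta2 (range -0.149 to 0.172), Lrat (-0.102 to 0.0462), Pdgfrb (-0.0954 to 0.0428), Reln (-0.0719 to 0.0251) and Tagln (-0.143 to 0.0307), whose differences are near 0. The 10 members with an unadjusted p under 0.05 kept their sign whichever array was left out.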

Other observations

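Some members had companions outside the matrix. After group and series were removed, the genes most like Tagln included Fkbp10, a collagen chaperone, Flna, an actin cross-linker, and Myl9, a smooth muscle light chain (r = 0.855, 0.837 and 0.834 over 20 arrays). Those most like Pdgfra included Notch4, an endothelial receptor, and Antxr1, a collagen-binding receptor (r = 0.808 and 0.780). Those most like Fn1 were Rnh1, Cog8 and Atg13 (r = 0.895, 0.853 and 0.833). On the 3 slides that held both groups, Col1a1, Col3a1, Col6a3, Postn and Ccn2 were lower in the responder on each slide. Loxl2 and Tagln were too, though neither had an unadjusted p under 0.05 for group. These arrays are part of the main fit, so the slides are no separate test, and the share over all rows was not counted. In slide order Col1a1 had -0.47, -0.07 and -1.28, and Col3a1 had -0.28, -0.09 and -1.30. Col6a3 had -0.14, -0.04 and -0.97, Postn -0.18, -0.02 and -0.85, and Ccn2 -2.17, -0.80 and -0.94. The last slide held non-responder 10 and responder 9. Col1a2, Lum, Vim and Pdgfra were lower on 2 of the 3 slides and higher on the other, by 0.18, 0.31, 0.22 and 0.19. Fn1 was higher on each, by 0.19, 0.09 and 0.21. So were Col15a1 (0.32, 0.24 and 0.17), Efemp1 (0.27, 0.27 and 0.02) and Hgf (0.58, 0.004 and 0.015). The fitted differences of Efemp1 and Hgf were negative. Acta1 ran from -4.23 to 5.89 in non-responders and from -5.48 to 6.06 in responders.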
